A study of Caenorhabditis elegans with 31 samples.

Results

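RNA of single nuclei was compared between F1 worms of lines given 0.05% ethanol and F1 worms of lines given water, in *Caenorhabditis elegans*. All libraries of unsorted nuclei whose labels gave the F1 generation and either of these treatments were taken, which made 10 of the 31 libraries of the study and 26598 of its 85180 nuclei. There were 5 libraries of 0.05% ethanol and 5 of water, each with 2 in batch 2 and 3 in batch 5, so the treatments were compared within batches. All worms carried fog-1(q253) on chromosome I, in the strain JK560, a mutant described by the submitters as failing in the last step of spermatogenesis. Such animals form a germline but hold no fertilised embryos. The strain was kept at 20 °C, and the worms to be sequenced spent their life after the first larval stage at 25 °C on OP50 bacteria. Whole adults were pooled and broken open, and nuclei were captured with their unique molecular identifiers (UMIs, tags that count captured RNA molecules). The labels give the ethanol percentage and the generation, but no length or stage of exposure, and their protocols differ on the age of the adults, so none is stated. They do not say that libraries came from separate cultures, so p-values measure only the spread between libraries, which may be technical. For the gene tests that spread was taken from all 26 libraries of water or ethanol, with 0.5% ethanol and the F3 generation included.

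The worm breaks down ethanol as other animals do, through an alcohol dehydrogenase (SODH-1) and a family of aldehyde dehydrogenases, while the potassium channel SLO-1 is known as a target of ethanol in its neurons. Silencing states can pass from parent to offspring in this animal through small RNAs bound to the nuclear Argonaute HRDE-1 in the germline and through histone methylation by enzymes such as SET-25. The question of the comparison was whether the transcripts of the F1 generation differed after exposure to the low ethanol level.

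Total counts per library ran between 1279752 and 10729660 UMIs for 0.05% ethanol and between 1439256 and 9471411 UMIs for water, and the median nucleus of a library held 712 to 1249 UMIs for 0.05% ethanol and 606 to 1434.5 UMIs for water. Cytosolic ribosomal RNA made up to 10.9% of UMIs in 1 library of 0.05% ethanol and up to 14.7% in 1 library of water, both of replicate number 2 in batch 5. Genes of the major sperm proteins (msp) held 291 UMIs in all 10 libraries together, and 0 of their 35 genes had enough counts to be tested. Replicate 1 of 0.05% ethanol and replicate 1 of water in batch 2 shared 202 nuclear barcodes, 12.6% of the nuclei of the smaller library. With all libraries of the batch counted, 15.9% of the nuclei of that 0.05% ethanol library and 10.9% of that water library had a barcode also seen elsewhere in the batch, against 0.967% to 3.63% in the other 8 libraries. The shared barcodes of this pair held like nuclei, and 78.1% fell in the same cluster. The share was 5.13% when those nuclei of 0.05% ethanol were set beside any nucleus of the water library. The cause was not tested. Counts of calls are given with and without the nuclei of shared barcodes, and so are named values that moved by over 1.5 times without them, other than log2 changes and medians within 0.05 of 0.

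No cell class differed in its share of nuclei between 0.05% ethanol and water beyond the spread between libraries. After removal of 640 likely doublets, 25958 nuclei remained. Of 31 clusters found over the whole study, 15 were named by marker genes and formed 9 classes, which left 58.7% ± 9.31 of nuclei unnamed in 0.05% ethanol and 58.2% ± 9.0 in water (SD, n = 5 each). Body wall muscle-like nuclei, named by myosin and other muscle filament genes such as myo-3 and unc-54, made 11.7% ± 3.37 of 0.05% ethanol libraries and 11.5% ± 3.78 of water libraries. Intestine-like nuclei, named by yolk protein and gut genes, made 8.0% ± 2.85 and 7.27% ± 1.68 in 0.05% ethanol and in water. Germline-like nuclei joined clusters named by meiotic genes such as syp-1 and clusters named by oocyte genes such as oma-1.

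Germline-like nuclei made 7.47%, 4.76%, 12.6%, 17.3% and 19% of the 0.05% ethanol libraries (batch 2 first), against 8.42%, 4.17%, 13%, 25.5% and 19.2% of the water libraries. The share was higher in batch 5 than in batch 2 in both groups, and the groups overlapped within both batches. Gonadal sheath-like nuclei, named for the contractile cells around the oocytes, had the smallest p: 2.76% ± 0.57 in 0.05% ethanol and 2.36% ± 0.46 in water, with 0.05% ethanol higher in 4 of 5 pairs of equal replicate number (exact two-sided permutation within batches, p = 0.317, adjusted over 10 classes 0.883). With 120 arrangements of the labels the smallest p this test can give is 0.0167. The other exact p-values lay at or above 0.45. For gonadal sheath-like nuclei, an exact two-sided test that swapped labels within pairs gave p = 0.125, adjusted 0.875. Gonadal sheath-like sums also held a list of P granule and germline or oocyte RNA regulators at 47080 CPM over both groups, against 12830 CPM in germline-like sums. Whether oocyte RNA or nuclei are part of the gonadal sheath-like class was not tested. Epidermis-like nuclei, named by cuticle genes such as dpy-7 and rol-6, made 1.52% and 4.79% of 0.05% ethanol libraries and 1.40% and 4.68% of water libraries in batch 2. In batch 5 they stayed at or below 0.18% in 0.05% ethanol and 0.40% in water, so their share followed the batch and the replicate number. The direction of the germline-like difference depended on the clustering: it was -1.55 points as reported and between 0.822 and 3.818 points in 4 clusterings with other random seeds.

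**Figure D1:**
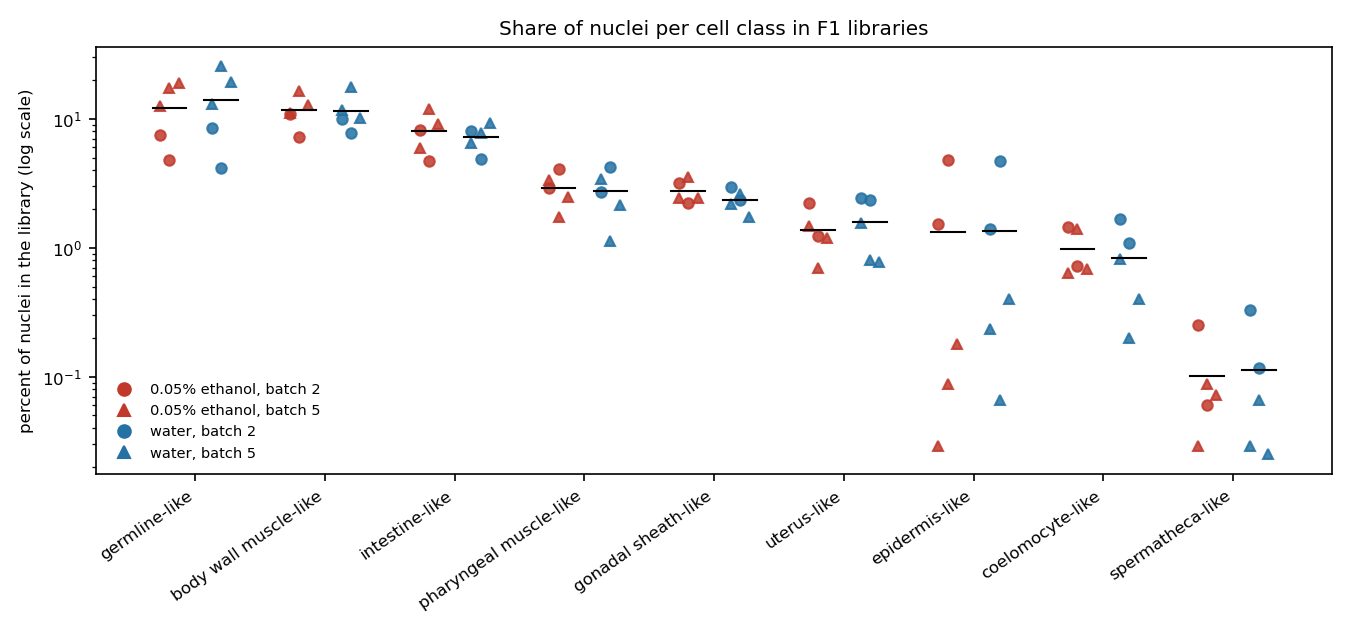
Percent of nuclei per cell class in each of the 10 F1 libraries (log scale), with 0.05% ethanol left of water in each class, circles for batch 2, triangles for batch 5 and bars for means. The groups overlap in all 9 classes, and epidermis-like nuclei reach 4.79% in a 0.05% ethanol library and 4.68% in a water library of batch 2, and no more than 0.40% in batch 5.

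No gene passed the test when the UMIs of all nuclei of a library were summed. Of 14196 genes tested with edgeR's quasi-likelihood test, 0 (0%) passed an adjusted p of 0.05 by the Benjamini-Hochberg method, 172 (1.21%) had an unadjusted p below 0.05, and DESeq2 called 0, with 176 at an unadjusted p below 0.05. With the replicate numbers as a block the count at an unadjusted p below 0.05 was 398 (2.8%), and 0 were called. Without the nuclei of shared barcodes 0 of 13740 genes passed, with 0.888% at an unadjusted p below 0.05. In such sums fewer cells of a type and less RNA per cell cannot be told apart. Whether the counting used strand is not given in the sources used here, so the split of reads is uncertain for named genes that overlap another gene on the other strand: sodh-1, slo-1, hsp-70, vit-2, set-25, nlp-21, flp-11, pld-1, E01A2.1, cnp-2, pcyt-1, picc-1, ina-1, W06A7.2 and ZC581.3. It is uncertain in any case for those that overlap one on the same strand, which are F01D5.3, gst-4, syp-1, W06A7.2 and nduo-1. Measured against the spread between libraries, the 95% interval of the fold lay within 2-fold either way for 10901 genes (76.8%). It did so for 6740 (96.2%) of the 7007 genes that averaged 20 CPM or more in 1 group (CPM, UMI counts scaled to a common library size). These intervals belong to 1 effect fitted over both batches. As libraries may not be separate cultures, they do not bound differences between cultures.

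Only 42 genes (0.296%) had their 0.05% ethanol and water libraries apart, without overlap and in the same direction, in both batches, 14 of them higher (0.0986%) and 28 lower (0.197%) in 0.05% ethanol, and 12 of these 42 were among the 7007 better measured genes (0.171%). The lowest p of the 12 belonged to tyr-2, which codes for an enzyme of the tyrosinase family and lies on chromosome III (III:13744222-13747287, 8 exons, WBcel235). It measured 31.3, 37.2, 10.7, 12.5 and 11.4 CPM in 0.05% ethanol and 37.5, 62.1, 18.5, 13 and 18.1 CPM in water. Batch 2 was higher than batch 5 in both groups, and 0.05% ethanol was lower in 5 of 5 pairs, and its log2 change was -0.56 with a standard error of 0.17, as ± also gives for later log2 changes (edgeR adjusted p = 1).

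The arginine methyltransferase gene prmt-5 (III:5230555-5234530, 10 exons) had the lowest p of the 12 on the higher side. It measured 51, 48.7, 59.9, 49.3 and 53.5 CPM in 0.05% ethanol and 41.2, 40.3, 48.1, 34.3 and 47.1 CPM in water. All 5 libraries of 0.05% ethanol lay above all 5 of water, with a log2 change of 0.30 ± 0.09 (edgeR adjusted p = 1), and it was 0.33 without the nuclei of shared barcodes. F01D5.3 (II:13999059-14000144), which overlaps F01D5.2 on the same strand so that reads may be split between them, had 47.6, 42.9, 27.2, 18.4 and 26.8 CPM in 0.05% ethanol and 86.1, 55.9, 56.8, 29.5 and 29.2 CPM in water. Its log2 change was -0.66 ± 0.22 (edgeR adjusted p = 1). Without the nuclei of shared barcodes tyr-2 stood at -0.46 and F01D5.3 at -0.50.

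The neuropeptide gene nlp-21 averaged 41.1 ± 12.9 CPM in 0.05% ethanol and 52.6 ± 10.2 CPM in water (SD, n = 5 each; log2 change -0.33, edgeR adjusted p = 1). Its lowest library, at 22.1 CPM, was replicate 2 of 0.05% ethanol in batch 5, which rested on 30 UMIs. The other 8 genes of the 12 had log2 changes between -0.49 and 0.27, none with an unadjusted p below 0.05. On the lower side were sth-1 (-0.49), enu-3.1 (-0.22), Y71H10B.1 (-0.18), ppk-2, a phosphatidylinositol phosphate kinase (-0.13, and -0.07 without the nuclei of shared barcodes), and pld-1, a phospholipase D (-0.11). sth-1 is also one of the genes that named spermatheca-like nuclei, whose share was 0.100% ± 0.088 in 0.05% ethanol and 0.113% ± 0.126 in water. It was also raised in a larger unnamed cluster led by clec-190, which made 2.2% ± 0.61 of 0.05% ethanol libraries and 2.45% ± 0.46 of water libraries. The part of these nuclei in the sth-1 value was not tested. On the higher side were nduo-1, which codes for a subunit of respiratory complex I in the mitochondrial genome (0.27), F52C12.6 (0.17) and E01A2.1 (0.17).

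**Figure D2:**
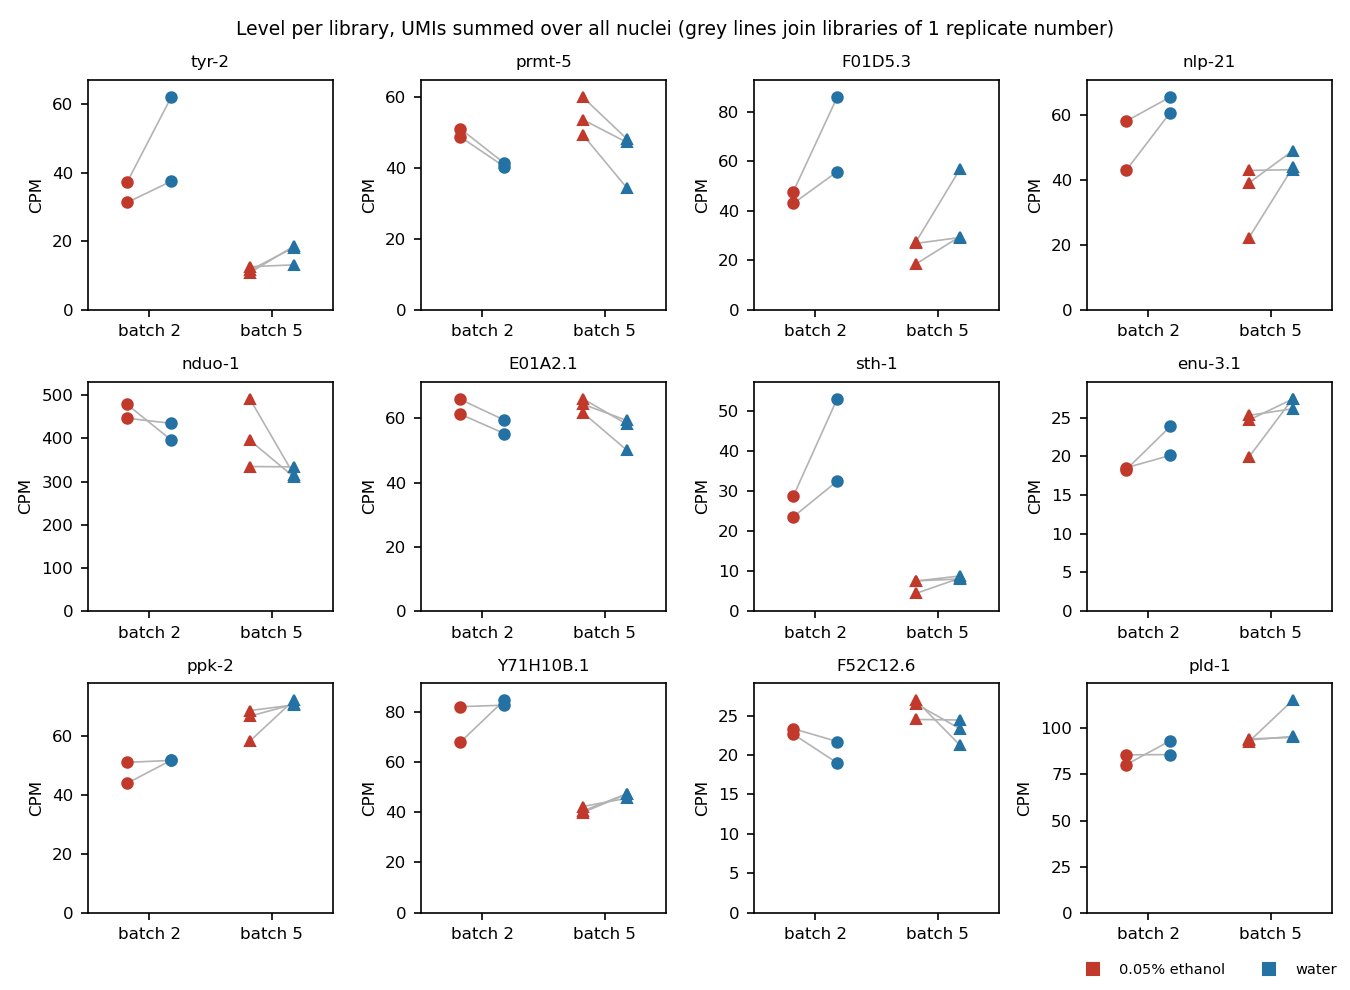
CPM of the 12 genes with at least 20 CPM whose 0.05% ethanol and water libraries did not overlap in batch 2 or in batch 5, from UMIs summed over all nuclei, with 0.05% ethanol left of water. Grey lines join libraries of equal replicate number; prmt-5 lies between 48.7 and 59.9 CPM in 0.05% ethanol, above the 34.3 to 48.1 CPM of water, while the gaps of genes such as pld-1 are small beside the spread between libraries.

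No gene that handles ethanol passed the test. sodh-1 measured 243, 429, 156, 66.2 and 149 CPM in 0.05% ethanol and 281, 505, 155, 85.8 and 129 CPM in water. The spread between libraries was several times the gap between the groups, which overlapped in both batches (log2 change -0.09 ± 0.24, edgeR adjusted p = 1). Of the 14 tested alcohol and aldehyde dehydrogenases 0 had an unadjusted p below 0.05, 13 had a log2 change below 0, and the median was -0.06 beside -0.01 over all genes. The changes were small throughout, from -0.14 for alh-6 to 0.03 for alh-5, and alh-8, the most abundant member, averaged 1006 CPM in 0.05% ethanol and 1039 CPM in water. Among the 12 tested synaptic and channel genes tied to ethanol behaviour 0 had an unadjusted p below 0.05, and the median was -0.03. slo-1 measured 7.46, 12.2, 8.65, 6.62 and 5.35 CPM in 0.05% ethanol and 7.52, 9.01, 6.98, 6.18 and 4.88 CPM in water. These values overlap in batch 2 and in batch 5 (log2 change 0.24 ± 0.19, edgeR adjusted p = 1).

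No gene of the stress lists passed the test, and 53.5% of all genes tested had a log2 change below 0. Heat-inducible chaperones, the small HSP-16 proteins and the inducible HSP70s made when proteins unfold, had log2 changes below 0 in 6 of 6 tested genes, with a median of -0.63. The whole list summed to 119, 122.4, 153, 152 and 170 CPM in 0.05% ethanol and 111.8, 94, 443, 161 and 228 CPM in water. One library stood out, replicate 1 of water in batch 5 at 443 CPM, while the 2 groups were close in batch 2. The median was 0.05 in batch 2 and -0.96 in batch 5. Over both batches it was -0.51 without that water library, and ran from -0.83 to -0.45 with 1 library left out. hsp-16.2 measured 48.6, 53.4, 46.3, 44.9 and 50.4 CPM in 0.05% ethanol and 44.1, 36.3, 142, 32.9 and 74.7 CPM in water (log2 change -0.37 ± 0.45, edgeR adjusted p = 1). It was 0.35 in batch 2 and -0.86 in batch 5, a difference that did not pass the test (edgeR adjusted p = 1).

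hsp-70 measured 14.4, 7.12, 19.9, 27.2 and 16.24 CPM in 0.05% ethanol and 12.2, 7.55, 62.4, 37.7 and 26.6 CPM in water. In batch 5 each 0.05% ethanol library was below the water library of its number, and in batch 2 the groups overlapped (log2 change -0.63 ± 0.49, edgeR adjusted p = 1). Some hsp-16 genes are near-identical copies, so the split of reads among such copies is uncertain. For example, hsp-16.1 held 0 UMIs in all 10 libraries, while hsp-16.11 was counted in each. By nuclei, the list stood highest in gonadal sheath-like sums, at 916 CPM over both groups, against 70.0 CPM in germline-like sums. In gonadal sheath-like sums hsp-16.2 averaged 318 ± 203 CPM in 0.05% ethanol and 315 ± 290 CPM in water, a log2 change of -0.00 ± 0.41 (edgeR adjusted p = 1). In intestine-like sums all 6 members had a change below 0, with a median of -1.09, where 49.3% of all genes of the class were below 0. There hsp-16.41 had 11.8, 33.7, 55.9, 61.6 and 15.2 CPM in 0.05% ethanol and 37.2, 37.4, 167, 23.6 and 62.3 CPM in water. The groups were apart in batch 2 and overlapped in batch 5 (log2 change -1.09 ± 0.49, edgeR adjusted p = 1). In body wall muscle-like sums hsp-70 had 8.84, 7.12, 9.09, 12.1 and 13.5 CPM in 0.05% ethanol and 11.3, 9.92, 72.9, 27.7 and 15.6 CPM in water (log2 change -1.48 ± 0.55, edgeR adjusted p = 1). The highest was again replicate 1 of water in batch 5, with 51 UMIs, and the libraries of 0.05% ethanol held 2 to 7 UMIs.

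**Figure D3:**
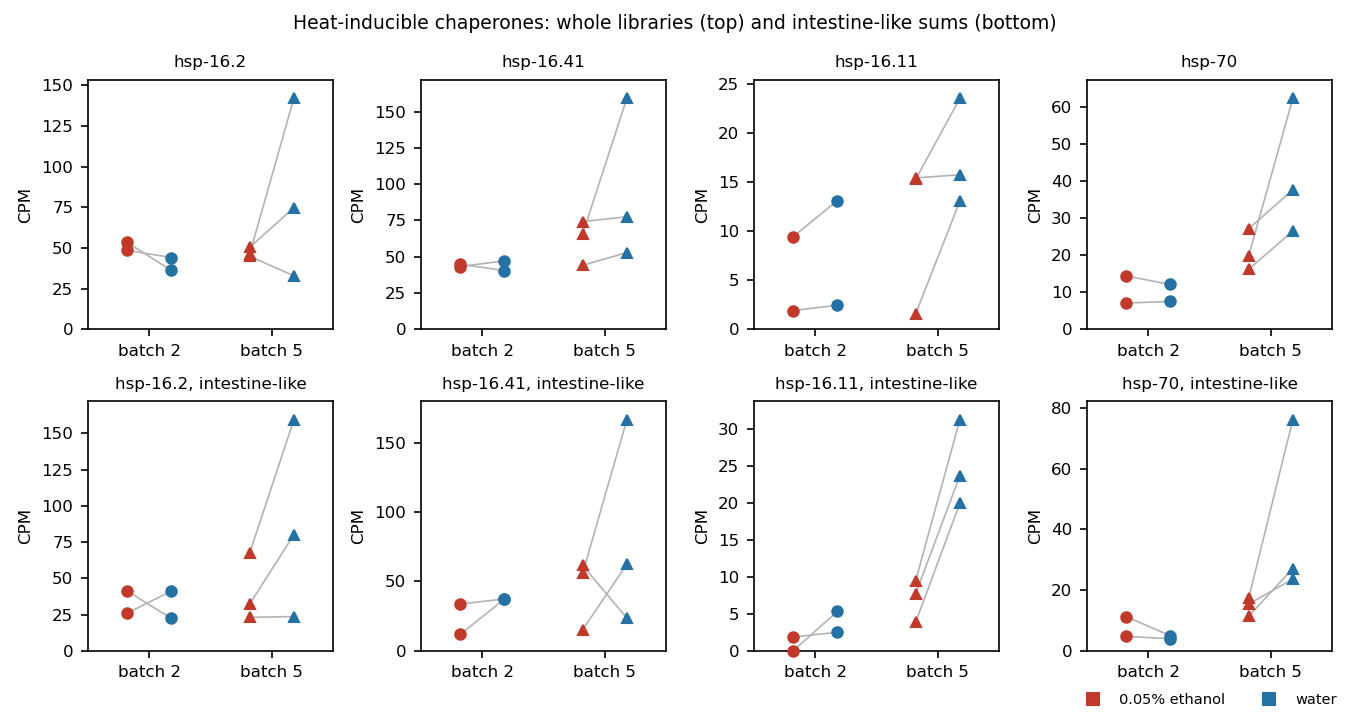
CPM of 4 heat-inducible chaperone genes per library, in whole libraries (top row) and in intestine-like sums (bottom row), with 0.05% ethanol left of water and grey lines joining equal replicate numbers. In whole libraries hsp-16.2 stays between 44.9 and 53.4 CPM in 0.05% ethanol, and the water libraries run from 32.9 to 142 CPM with the highest in batch 5.

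Of the 13 constitutive, ER and mitochondrial chaperones 0 had an unadjusted p below 0.05 (median -0.03). The oxidative and xenobiotic response list had 18 of 24 members below 0 and a median of -0.10 (-0.06 without the nuclei of shared barcodes), again with 0 at an unadjusted p below 0.05. The glutathione S-transferase gene gst-4 averaged 201 ± 81.4 CPM in 0.05% ethanol and 233 ± 81.6 CPM in water, and the metallothionein gene mtl-1 averaged 247 ± 56.0 CPM and 290 ± 120 CPM in 0.05% ethanol and in water. Neither difference exceeded the spread (log2 changes -0.23 ± 0.19 and -0.24 ± 0.28, edgeR adjusted p = 1 for both). Innate immune effectors and regulators had 14 of 18 members below 0 and a median of -0.16 (-0.08 without the nuclei of shared barcodes). Without replicate 1 of water in batch 5, the library with the highest sum of heat-inducible chaperones, the median of the oxidative list was 0.01 and that of the immune list 0.04. In the immune list stood T24B8.5, a known target of the PMK-1 kinase pathway, at 405 CPM in 0.05% ethanol and 569 CPM in water (log2 change -0.49 ± 0.29, edgeR adjusted p = 1).

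Metabolic genes of the intestine and yolk were close between the groups. The 6 vitellogenins, yolk proteins made in the intestine for the oocytes, had a median of -0.12, with 6 of 6 below 0 (53.5% of all genes were). That median was -0.03 without the nuclei of shared barcodes, -0.30 in batch 2 and -0.01 in batch 5, and 0.00 without replicate 2 of 0.05% ethanol in batch 2. vit-2 measured 10700, 7084, 11510, 12060 and 12830 CPM in 0.05% ethanol and 12110, 9704, 13020, 10030 and 12150 CPM in water. It was lower in 0.05% ethanol in both pairs of batch 2 and in 1 of 3 pairs of batch 5 (log2 change -0.09 ± 0.14, edgeR adjusted p = 1; -0.02 without the nuclei of shared barcodes). In intestine-like sums, where it is most abundant, vit-2 averaged 36370 ± 8754 CPM in 0.05% ethanol and 34630 ± 7470 CPM in water. The lipid list of 26 genes had a median of -0.03, with 0 at an unadjusted p below 0.05. The stearoyl-CoA desaturase gene fat-7, low in all libraries, had 5.77, 10.5, 4.00, 1.47 and 1.85 CPM in 0.05% ethanol and 6.36, 7.18, 0.646, 2.06 and 1.87 CPM in water (log2 change 0.59 ± 0.34, edgeR adjusted p = 1).

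Germline genes, and those that carry heritable silencing, did not pass the test. In the list of small RNA inheritance 0 of 30 tested genes had an unadjusted p below 0.05, with 12 above 0, 18 below 0 and a median of -0.03. hrde-1 measured 54.8, 37.8, 72.4, 118 and 74.6 CPM in whole libraries of 0.05% ethanol and 47.2, 42.5, 49.4, 83.0 and 79.7 CPM in those of water (log2 change 0.20 ± 0.15, edgeR adjusted p = 1). In germline-like sums hrde-1 had 189, 89.5, 150, 252 and 150 CPM in 0.05% ethanol and 85.1, 75.6, 99.4, 172 and 116 CPM in water. Both 0.05% ethanol libraries of batch 2 were above both water libraries, and in batch 5 the groups overlapped through replicate 2 of water at 172 CPM, while 0.05% ethanol was higher in 5 of 5 pairs of equal number. This was the smallest p among the 12 genes followed in their highest class (log2 change 0.60 ± 0.21, edgeR adjusted p = 1; 0.59 ± 0.16 with the replicate block, adjusted p = 1). With nuclei pooled over the libraries of a group, an oocyte cluster held 33.1% of the germline-like class in 0.05% ethanol and 39.9% in water. Another cluster held 21.1% in 0.05% ethanol and 16.9% in water. By library, neither cluster's share of all nuclei differed beyond the spread (exact two-sided permutation within batches, adjusted over 31 clusters 0.999 for both). The oocyte cluster made 3.93% ± 1.78 of 0.05% ethanol libraries and 6.1% ± 5.37 of water libraries, with 14.6% in the highest water library. The part of these clusters in values within the class was not tested. Histone methylation regulators had a median of 0.04 over 26 genes, with 16 above 0, and 0 had an unadjusted p below 0.05. set-25, which methylates lysine 9 of histone H3, averaged 59.3 ± 28.2 CPM in 0.05% ethanol and 52.9 ± 23.9 CPM in water (log2 change 0.14 ± 0.18, edgeR adjusted p = 1).

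The meiotic list (chromosome axis, synapsis and recombination) had 21 of 26 members above 0, with a median of 0.03, all within 0.18 of 0. syp-1, a part of the synaptonemal complex, averaged 41.9 ± 12.9 CPM in 0.05% ethanol and 40.9 ± 11.8 CPM in water (log2 change 0.01 ± 0.17, edgeR adjusted p = 1). P granule and oocyte RNA regulators had a median of -0.01 over 22 genes. The germline helicase gene glh-1 had 204, 159, 204, 248 and 233 CPM in 0.05% ethanol and 252, 212, 193, 217 and 224 CPM in water. It was lower in 0.05% ethanol in batch 2 (log2 change -0.36) and higher in batch 5 (0.11), stood at -0.08 over both batches (-0.03 without the nuclei of shared barcodes), and the difference between the batches had an edgeR adjusted p of 1, where 151 genes (1.06%) had an unadjusted p below 0.05.

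The lowest p in any list was that of ced-13, which codes for a BH3-only protein that starts cell death after DNA damage. It was scarce: 2.89, 1.91, 1.12, 0.736 and 1.66 CPM in 0.05% ethanol and 0.868, 1.1, 0.388, 0.686 and 0.144 CPM in water, which rested on 1 to 18 UMIs in a library. The groups did not overlap within batch 2 or within batch 5 (log2 change 1.53 ± 0.44, edgeR adjusted p = 1). The other 10 members of the apoptosis list lay between -0.06 and 0.16, among them egl-1, another BH3-only gene (0.08), and cep-1, the worm's p53 (0.03).

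Transcripts of the mitochondrial genome stood slightly higher in 0.05% ethanol, with no gene past the test. All 12 protein-coding mitochondrial genes had a log2 change above 0, in batch 2 as in batch 5, where 21.7% of all genes were above 0 in both batches, and 0 had an unadjusted p below 0.05 in whole libraries. The changes ran from 0.16 for nduo-6 to 0.33 for ndfl-4, with a median of 0.21. These genes are read from 1 small genome and are not independent of each other. Summed, they made 10180, 11980, 15410, 15920 and 10430 CPM in 0.05% ethanol and 9889, 8594, 9682, 12840 and 10940 CPM in water. The groups were apart in batch 2 and overlapped in batch 5, where replicate 3 was slightly higher in water. nduo-1 itself had 447, 478, 492, 396 and 335 CPM in 0.05% ethanol and 435, 396, 316, 311 and 334 CPM in water. The mitochondrial list was above 0 in 12 of 12 genes in body wall muscle-like, gonadal sheath-like and intestine-like sums (medians 0.27, 0.30 and 0.34), in 11 of 12 in uterus-like, 10 of 12 in germline-like and 8 of 12 in pharyngeal muscle-like sums. Of all genes, 50.2% were below 0 in body wall muscle-like, 49.5% in uterus-like and 53.7% in pharyngeal muscle-like sums. At an unadjusted edgeR p below 0.05, all higher, stood 3 mitochondrial genes in intestine-like sums (3.04% of all genes) and 3 in uterus-like sums (4.35%). There was 1 in body wall muscle-like (2.48%) and 1 in gonadal sheath-like sums (1.85%), and 0 in germline-like and pharyngeal muscle-like sums. In isolated nuclei such transcripts come with cytoplasm or mitochondria carried along, and how far that moved these values was not tested. Before doublets were removed, the same 12 genes made 1.01% to 1.58% of UMIs in 0.05% ethanol libraries and 0.855% to 1.25% in water libraries. These shares restate the sums above and are not a separate measure.

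Cytosolic ribosomal protein genes had a median of 0.03 over 77 genes, with 61 above 0, but the median was -0.18 in batch 2 and 0.16 in batch 5 and turned negative without a single library. Among classes they stood on opposite sides. In germline-like sums 75 of 77 were below 0 (median -0.19), where 54.8% of all genes of that class were. The clusters of that class differed in weight between the pooled nuclei of the groups, though not beyond the spread between libraries, as given for hrde-1. In gonadal sheath-like sums 72 of 77 were above 0 (median 0.22), where 51.7% of all genes were below 0. At an unadjusted p below 0.05 stood 0 and 2 of them. The difference between classes was not tested.

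Cuticle collagens had 98 of 119 tested genes below 0, of which 68 were below 0 in both batches (27.1% of all genes were), and a median of -0.34. Summed, they made 92930, 106500, 69110, 53400 and 67110 CPM in 0.05% ethanol and 88550, 124700, 69720, 56250 and 58840 CPM in water, overlapping in both batches. By class, 45 of 76 were above 0 in body wall muscle-like and 28 of 46 in uterus-like sums. In the other tested classes most were below 0, such as 54 of 71 in germline-like sums (54.8% of all genes of that class were). The fungus-induced peptide related genes, short secreted peptides, had 22 of 23 below 0 and a median of -0.37. Of the collagens 2 had an unadjusted p below 0.05 on the higher side and 7 on the lower, beside 0.451% and 0.761% of all genes. col-180 measured 44.7, 61.2, 1.12, 0.736 and 2.21 CPM in 0.05% ethanol and 55.5, 129, 1.94, 2.06 and 9.19 CPM in water (log2 change -1.07 ± 0.43, edgeR adjusted p = 1). col-161 measured 149, 228, 0.480, 1.47 and 2.21 CPM in 0.05% ethanol and 186, 699, 0.905, 2.75 and 13.9 CPM in water (log2 change -1.55 ± 0.65, edgeR adjusted p = 1). Both genes were lower in 0.05% ethanol in 5 of 5 pairs, yet the groups overlapped in both batches, and in both groups the level was far higher in batch 2, where epidermis-like nuclei made 1.52% and 4.79% of 0.05% ethanol libraries and 1.40% and 4.68% of water libraries. An unnamed cluster led by T06E4.12, T06E4.14 and abu-1, with the collagen gene col-88 among its leading genes and 2 markers of the arcade and pharyngeal cuticle epithelium raised, moved the same way as the collagens. It made 8.11%, 11.2%, 0.173%, 0.0869% and 0.577% of 0.05% ethanol libraries and 8.51%, 15.8%, 0.261%, 0.133% and 0.948% of water libraries. Its share was lower in 0.05% ethanol in 5 of 5 pairs, while the groups overlapped in both batches (exact two-sided permutation within batches, p = 0.433, adjusted over 31 clusters 0.999). The part of these nuclei in the collagen values was not tested. Over both groups, body wall muscle-like nuclei held 14.7% of the collagen UMIs (149900 CPM in that class). Epidermis-like nuclei held 4.12% (114200 CPM) and unnamed nuclei 68.7%. Whether RNA or nuclei of other cells are part of the body wall muscle-like class was not tested. The collagen median was -0.02 without replicate 2 of water in batch 2, the library with 699 CPM of col-161, -0.13 without replicate 3 of water in batch 5, and -0.62 and -0.57 without replicate 2 of 0.05% ethanol and replicate 1 of water in batch 2. The median of the fungus-induced peptide related genes ran more widely with 1 library left out, from -0.97 without replicate 2 of 0.05% ethanol in batch 2 to -0.16 without replicate 2 of water in batch 2. Likewise fipr-6 had 5.53, 24.9, 0.961, 0 and 0.184 CPM in 0.05% ethanol and 19.7, 101, 5.56, 0 and 0 CPM in water (log2 change -1.98 ± 0.86, edgeR adjusted p = 1), with replicate 2 of batch 2 highest in both groups. fipr-8, at 6.26 ± 9.07 CPM in 0.05% ethanol and 18.7 ± 32.8 CPM in water, had the same high libraries (log2 change -1.53 ± 0.71, edgeR adjusted p = 1).

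**Figure D4:**
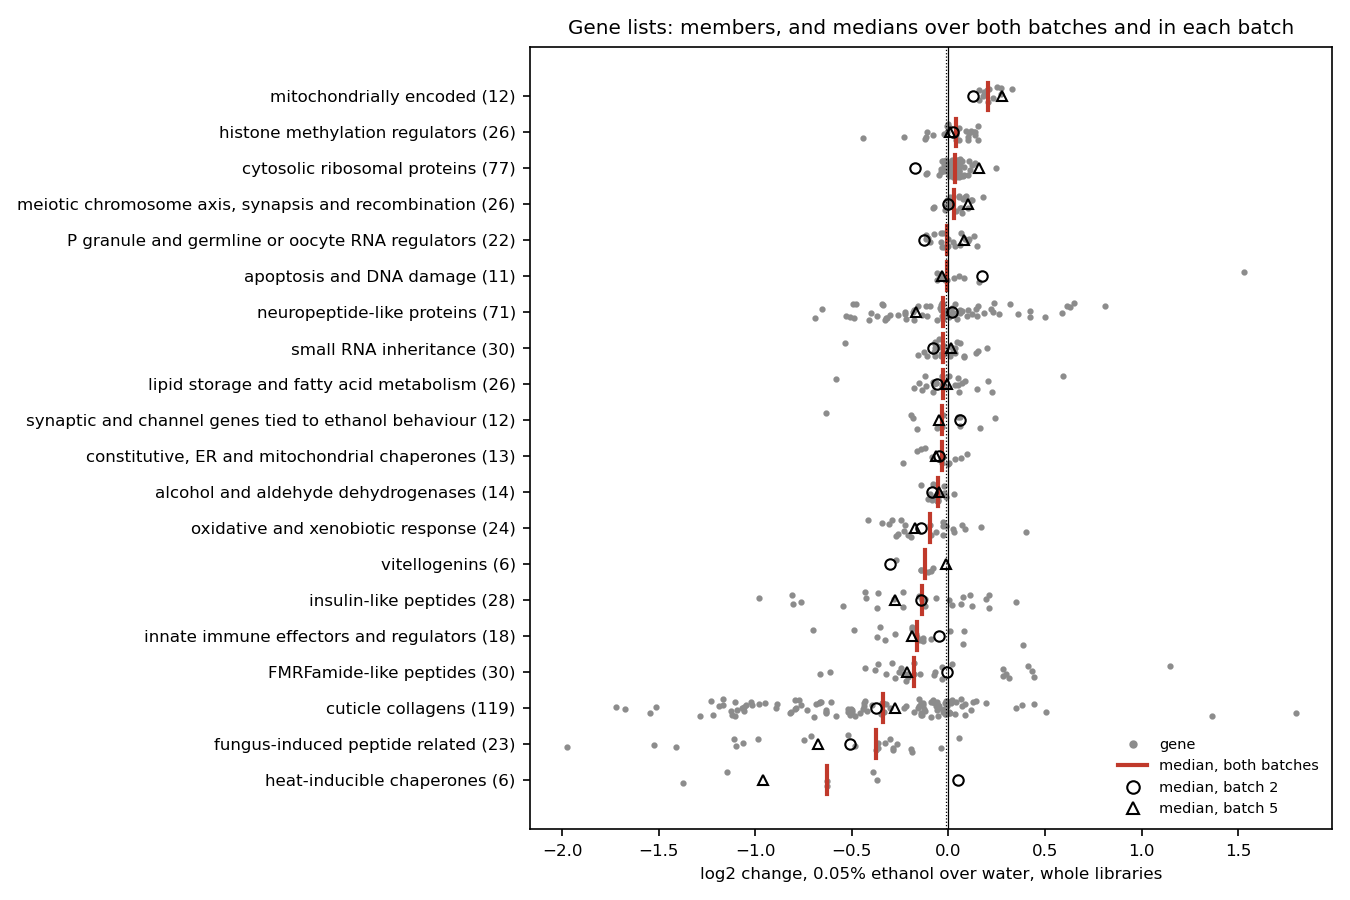
Log2 change of 0.05% ethanol over water for each tested gene of 20 lists (grey points, number of genes in brackets), with the median over both batches (red bar), in batch 2 (circle) and in batch 5 (triangle). The mitochondrially encoded list has a median of 0.21 and no gene below 0, while the heat-inducible chaperones have medians of 0.05 in batch 2 and -0.96 in batch 5.

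Neuropeptide genes were spread on both sides. FMRFamide-like peptides had 21 of 30 genes below 0 and a median of -0.18 (-0.01 in batch 2, and 0.01 without replicate 1 of water in batch 5), with 1 gene at an unadjusted p below 0.05 in each direction. flp-18 measured 14.7, 27.5, 15.1, 8.09 and 13.7 CPM in 0.05% ethanol and 46.7, 19.6, 18.4, 23.3 and 21.8 CPM in water (log2 change -0.66 ± 0.28, edgeR adjusted p = 1). It was lower in 0.05% ethanol in 4 of 5 pairs and higher in replicate 2 of batch 2. flp-11, which codes for peptides that promote sleep, measured 36.1, 109, 148, 9.56 and 22.9 CPM in 0.05% ethanol and 23.6, 30.2, 50.8, 7.55 and 33.3 CPM in water (log2 change 1.15 ± 0.49, edgeR adjusted p = 1). The groups were apart in batch 2 and overlapped in batch 5, and the gene overlaps tmem-135 on the other strand. Among 71 neuropeptide-like genes, nlp-67 averaged 2.32 ± 1.63 CPM in 0.05% ethanol and 3.83 ± 1.92 CPM in water (log2 change -0.69 ± 0.31, edgeR adjusted p = 1), lower in 5 of 5 pairs. Insulin-like peptides had 18 of 28 genes below 0 (median -0.14, and 0.03 without replicate 1 of water in batch 5). Of these ins-12, with 1 to 21 UMIs in a library, had 0.962, 1.38, 0.961, 0.736 and 0.554 CPM in 0.05% ethanol and 2.03, 2.56, 1.29, 2.06 and 1.72 CPM in water, without overlap in batch 2 or in batch 5 (log2 change -0.98 ± 0.44, edgeR adjusted p = 1). In pharyngeal muscle-like sums 3 insulin-like genes were tested, 2 above 0 and 1 below, with a median of 1.25. Of them 1 had an unadjusted edgeR p below 0.05, on the higher side, beside 3.69% of all genes of that class in either direction.

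Within single cell classes no gene passed the test either. Class sums were tested in 6 classes, with 36126 pairs of gene and class. Of these 0 were called by edgeR (0%), 984 (2.72%) had an unadjusted p below 0.05, and DESeq2 called 0, with 862 at an unadjusted p below 0.05. With the replicate block, too, 0 pairs were called, with 1368 (3.79%) at an unadjusted p below 0.05. This 0 depended on the clustering: in earlier clusterings of these nuclei with other class sizes, replaced after their results had been seen by an arithmetic that does not depend on the processor, the block called cnp-2 in uterus-like sums, and 1 of them also called ttr-14 and F42G10.1 in uterus-like and hsp-16.41 in intestine-like sums. In the class sums reported here, without the nuclei of shared barcodes 0 were called, with 991 at an unadjusted p below 0.05. The share of pairs at an unadjusted p below 0.05 was highest in uterus-like sums (4.35%) and pharyngeal muscle-like sums (3.69%), followed by intestine-like (3.04%), body wall muscle-like (2.48%), gonadal sheath-like (1.85%) and germline-like sums (1.7%). In 547 pairs (1.51%) the 0.05% ethanol and water libraries were apart in both batches, which made 5.01% of genes in uterus-like, 2.18% in pharyngeal muscle-like and 1.09% in intestine-like sums, and under that 0.988% (body wall muscle-like), 0.819% (gonadal sheath-like) and 0.772% (germline-like). Replicate 2 of 0.05% ethanol and of water in batch 5 (8 and 12 nuclei) had been left out of the uterus-like sums, and replicate 2 of water in batch 5 (17 nuclei) out of the pharyngeal muscle-like sums. That left 8 and 9 libraries in these classes, against 10 in the others. Groups of fewer libraries are apart more easily without any effect, so the shares of genes apart cannot be ranked across classes. Sums per library held 171233 to 621473 UMIs in body wall muscle-like nuclei and 48163 to 152235 in uterus-like nuclei, so the smaller classes were read less precisely.

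Named by the smallest p among pairs that were apart in both batches and had at least 50 CPM, 5 pairs came from uterus-like sums. With 8 libraries in that class, the rule of being apart was easier to meet there. skpo-1, a haem peroxidase gene (II:8400299-8404848, 16 exons), measured 180, 473, 144 and 949 CPM in 0.05% ethanol and 85.9, 114, 76.6 and 39.6 CPM in water. All 4 libraries of 0.05% ethanol were above all 4 of water, but the highest 2 of them carried most of the difference (log2 change 2.38 ± 0.50, edgeR adjusted p = 1), and it was 1.47 without the nuclei of shared barcodes. pcyt-1, which codes for the enzyme that sets the rate of phosphatidylcholine synthesis, averaged 151 ± 42.7 CPM in 0.05% ethanol and 60.6 ± 18.8 CPM in water (SD, n = 4 each; log2 change 1.38 ± 0.33, edgeR adjusted p = 1).

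cnp-2 measured 18, 10.3, 0 and 0 CPM in uterus-like nuclei of 0.05% ethanol, from 2 UMIs in all, and 198, 175, 38.3 and 59.4 CPM in those of water, from 30, 20, 4 and 3 UMIs. The groups did not overlap (log2 change -4.02 ± 1.12, edgeR adjusted p = 1), and the gene overlaps vps-2 on the other strand. W06A7.2 had a log2 change of 1.63 ± 0.48 and K08D9.9 of -2.31 ± 0.68 (edgeR adjusted p = 1 for both). K08D9.9 rested on replicate 1 of water in batch 2, with 786 CPM, and stood at -0.69 without the nuclei of shared barcodes.

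Of the 12 named pairs 3 came from gonadal sheath-like sums, and these 3 were higher in 0.05% ethanol. The splicing factor gene cwc-15 had 83.3, 65.5, 147, 140 and 160 CPM in 0.05% ethanol and 34.7, 41.0, 71.3, 21.1 and 53.5 CPM in water, or 5 to 25 UMIs in a library of 0.05% ethanol and 1 to 9 in one of water (log2 change 1.26 ± 0.37, edgeR adjusted p = 1). ina-1, an alpha integrin gene, had 442, 262, 147, 168 and 114 CPM in 0.05% ethanol and 197, 92.2, 103, 84.4 and 96.2 CPM in water (log2 change 0.89 ± 0.28, edgeR adjusted p = 1). Its level was highest in replicate 1 of batch 2 in both groups. Y111B2A.3 averaged 75.4 ± 29.6 CPM in 0.05% ethanol and 25.0 ± 6.29 CPM in water (log2 change 1.47 ± 0.47, edgeR adjusted p = 1).

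In body wall muscle-like sums lido-9 measured 38.3, 39.2, 40.9, 24.2 and 38.4 CPM in 0.05% ethanol and 71.8, 53.5, 55.7, 77.6 and 57.1 CPM in water. All 5 libraries of 0.05% ethanol lay below all 5 of water (log2 change -0.70 ± 0.20, edgeR adjusted p = 1). picc-1, which codes for a coiled-coil partner of the polarity protein PAR-3, had 50.1, 35.6, 68.2, 72.8 and 67.3 CPM in 0.05% ethanol and 24.6, 17.9, 35.7, 27.7 and 50.2 CPM in water (log2 change 0.85 ± 0.24, edgeR adjusted p = 1), and it overlaps dhs-17 on the other strand. ule-2, a gene of the uterine lumen that also served to name uterus-like nuclei, averaged 218 ± 69.1 CPM in 0.05% ethanol and 308 ± 97.6 CPM in water (log2 change -0.48 ± 0.15, edgeR adjusted p = 1); how far RNA from other nuclei moved it was not tested. In pharyngeal muscle-like sums ZC581.3 averaged 34.6 ± 24.7 CPM in 0.05% ethanol (SD, n = 5) and 97.0 ± 33.0 CPM in water (n = 4), a log2 change of -1.13 ± 0.36 (edgeR adjusted p = 1).

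**Figure D5:**
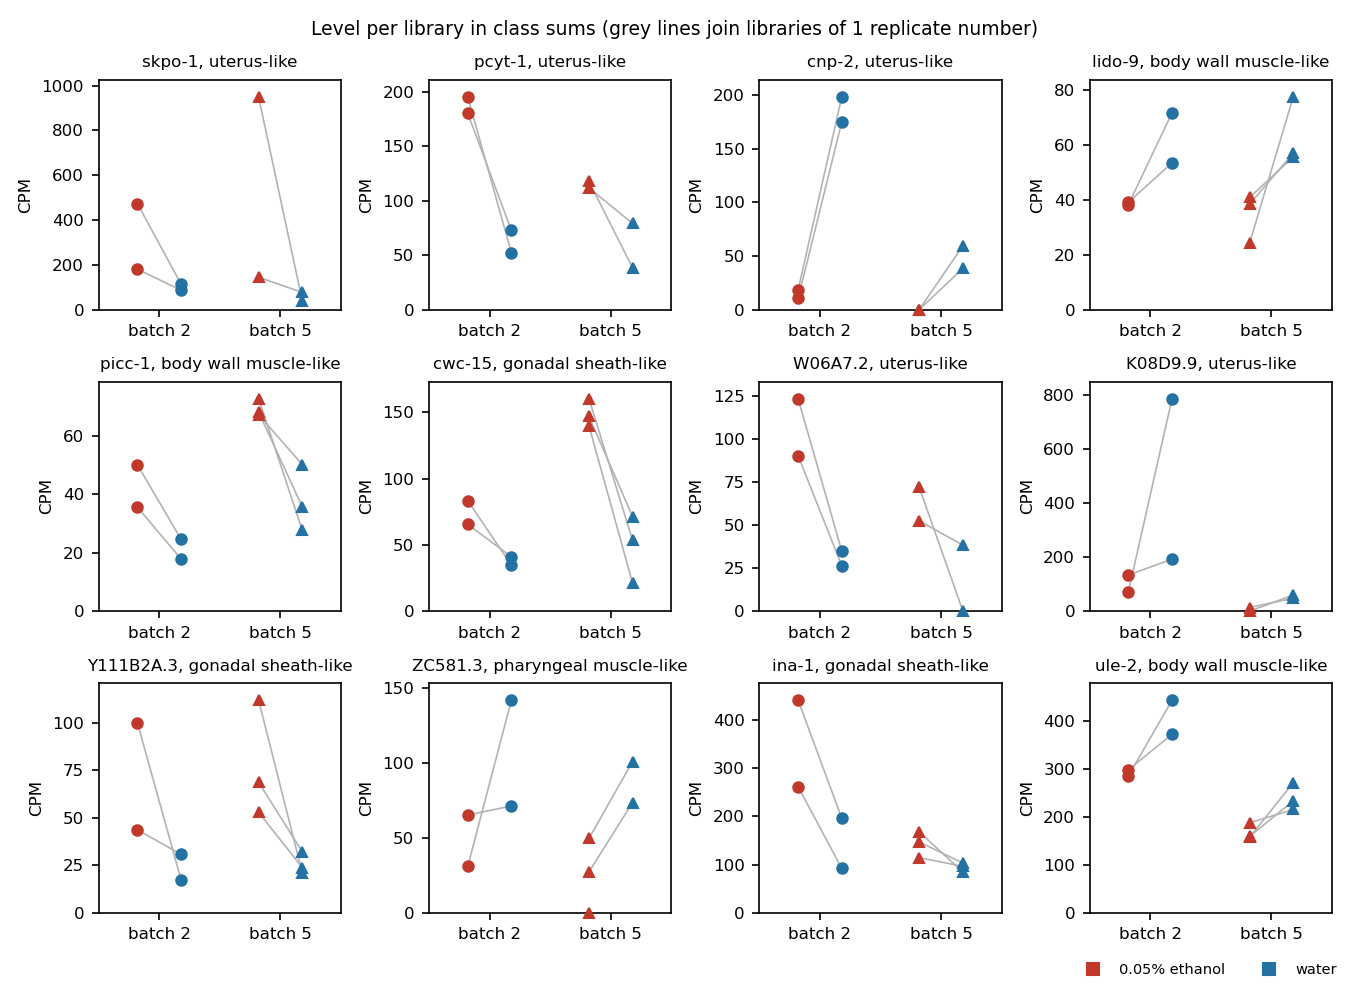
CPM per library of the 12 named pairs of gene and cell class, from UMIs summed over the nuclei of that class, with 0.05% ethanol left of water and grey lines joining equal replicate numbers. The groups are apart in both batches by the rule that chose the pairs; lido-9 in body wall muscle-like sums lies at 24.2 to 40.9 CPM in 0.05% ethanol and 53.5 to 77.6 CPM in water.

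The 2 batches gave effects with little in common. Across the 7007 better measured genes the log2 changes of batch 2 and batch 5 had a Pearson correlation of 0.20 and a Spearman correlation of -0.01, given as a description across genes, which are not independent replicates. The sign was the same in both batches for 3388 of them (48.4%). At an unadjusted p below 0.05 stood 120 genes (0.845%) in batch 2 and 214 (1.51%) in batch 5, and 0 were called in either with all libraries kept.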

How the data were processed

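Nuclei of whole worms were read as UMI counts per gene and nucleus. The authors deposited raw count matrices, with software version 3.0.2 per the file headers, and Cell Ranger and build ce10 per the submitters' processing notes; the use of strand is not given in the sources used here. Gene positions are those of WBcel235 (Ensembl), matched by identifier for 46817 of 46904 genes, since the files carry no coordinates. The matrices had been filtered to called nuclei by the authors.

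Likely doublets (0.8% per 1000 nuclei) were removed. All 31 libraries were clustered together with leidenalg 0.10.2 (igraph 0.11.9, 2000 variable genes, 30 library-corrected components, 15 neighbours, resolution 1). Clusters of at least 50 nuclei were named from markers, with a mean log2 fold of at least 0.8 that was 0.5 above the next list and at least 3 markers raised 1.5-fold. Naming thresholds were set after the data were seen, and doublets may remain.

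Sums of counts were formed for each library, and for each class of at least 20 nuclei in it, and tested with edgeR 4.0.16 (R 4.3.3; quasi-likelihood, TMM, filterByExpr). A single model held all 26 libraries of water or ethanol, with 1 baseline for each batch and generation and 1 effect for each dose and generation. Calls needed a Benjamini-Hochberg adjusted p below 0.05. SEs follow from edgeR's F statistic, and CPM use TMM-scaled library sizes, except list sums, which use total counts. DESeq2 1.42.0 was the other tool. For shares, labels were permuted exactly (two-sided) within batches and, where said, swapped within pairs.

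Same-numbered libraries deviated together over 6855 genes (r = 0.768 in batch 2, and 0.692, 0.682 and 0.438 in batch 5). Numbers were therefore used as pairs in the replicate block and in counts of pairs. The main fit and the share test within batches did not use the pairing. The numbers' meaning is not in the labels. The block changed no call in the classes reported; it had in earlier clusterings, whose arithmetic was changed after results had been seen.

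Named were up to 12 genes with at least 20 CPM in 1 group, and up to 12 pairs of gene and class with at least 50 CPM, with the smallest p among those whose groups did not overlap in either batch. Also named were calls, 12 genes followed throughout and up to 2 members per list (21 lists) with an unadjusted p below 0.05. alh-5, alh-6, alh-8, T24B8.5, egl-1, cep-1, nduo-6, ndfl-4 and hsp-16.41 were chosen after their values were seen. Members, lists and rules were chosen with earlier results of these data known.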

Additional observations from a re-analysis of the deposited data

Results flagged for a closer look

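In groups of 5 libraries, a library far from the others was seen in the values below, measured as its gap to the next library over the range of the group. Chance marks about 1 in 20 groups of like libraries in this way, but each group here joins 2 batches, and for col-161, fipr-6, fipr-8 and the epidermis-like share the batches differ so much in level that this rate does not hold.

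Collagen col-161 had 699 CPM in replicate 2 of water in batch 2, where the next water library had 186 CPM. The same replicate number held the highest level of fipr-6, with 24.9 CPM in 0.05% ethanol (next 5.53) and 101 CPM in water (next 19.7), and of fipr-8, with 21.9 CPM in 0.05% ethanol (next 6.49) and 77.0 CPM in water (next 8.39). Epidermis-like nuclei made 4.68% of that water library, against 1.40% in the next. The neuropeptide gene flp-18 had 46.7 CPM in replicate 1 of water in batch 2 (next 23.3). lido-9 in body wall muscle-like sums had its lowest value of 0.05% ethanol, 24.2 CPM, in replicate 2 of batch 5 (next 38.3), from 4 UMIs. ina-1 in gonadal sheath-like sums had 197 CPM in replicate 1 of water in batch 2 (next 103). Spermatheca-like nuclei made 0.253% of replicate 1 of batch 2 in 0.05% ethanol (next 0.0869%). The causes were not tested.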

How the results depend on the processing

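Whole-library sums had 0 calls in every alternative that fitted a single effect of 0.05% ethanol in F1: the 10 libraries alone, the replicate block, RLE factors, no filter on low counts, DESeq2, doublets kept, no ribosomal and mitochondrial RNA, no shared barcodes, each batch alone and each library left out. With separate effects per batch, the batch 2 effect did have calls when a library was left out, which can leave 1 library in a group of that batch. Class sums had 0 calls except for 32 with no filter on low counts, among them skpo-1, cnp-2 and K08D9.9 in uterus-like sums, and, in alternatives chosen after the data were seen (shared barcodes, other clusterings, and the block combined with these or with a library left out), 3 with the replicate block without replicate 1 of 0.05% ethanol in batch 5, 2 with the block without replicate 1 of water in batch 5 and 1 with the block in the classes of another random seed (again cnp-2); the cause was not tested. The calls of the block with a library left out lay in pharyngeal muscle-like sums. They were trh-1 and ins-10 in both settings, and egl-21 without replicate 1 of 0.05% ethanol. trh-1 and ins-10 were also among the 32 with no filter. Without replicate 1 of water, that class kept only replicate 3 of water in batch 5. The replicate block, which pairs equal numbers, gave 398 genes at an unadjusted p below 0.05, against 172 without it, and changed no call. That count was 59 in the 10 libraries alone, 350 without a filter, and 166 to 379 with 1 library left out; in class sums it was 486 and 2648, against 984.

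Signs turned, for log2 changes that passed no test, in batch 5 alone for sodh-1 (0.007), vit-2 (0.047) and glh-1 (0.112), and in batch 2 alone for hsp-16.2 (0.346), hsp-70 (0.116) and syp-1 (-0.162). syp-1 also turned with RLE factors (-0.003), no filter (-0.004), DESeq2 (-0.004) and doublets kept (-0.031). With 1 library left out, log2 changes ran from -0.201 to 0.091 for sodh-1, -0.538 to 0.030 for hsp-16.2, -0.380 to 0.008 for mtl-1, -0.162 to 0.026 for vit-2, -0.090 to 0.148 for syp-1, -0.138 to 0.023 for glh-1 and -0.025 to 0.301 for set-25.

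Differences in share, in points, turned for coelomocyte-like (-0.011) and epidermis-like nuclei (0.236) with named classes as denominator, for epidermis-like (0.047) and pharyngeal muscle-like nuclei (-0.000) with at least 600 UMIs per nucleus, for pharyngeal muscle-like nuclei at resolution 0.6 (-0.037), and with other seeds for germline-like (0.822, 3.818, 1.549 and 1.667), intestine-like (-0.139) and spermatheca-like nuclei (0.008 and 0.004). With 1 library left out they ran from -0.710 to 1.347 for body wall muscle-like, -0.116 to 0.251 for coelomocyte-like, -0.827 to 0.809 for epidermis-like, -3.109 to 0.016 for germline-like, -0.283 to 1.498 for intestine-like, -0.234 to 0.533 for pharyngeal muscle-like and -0.074 to 0.031 for spermatheca-like nuclei. None of these passed the test under any setting run. Counting error limits genes under a few CPM and the sums of small classes, where single UMIs move the value.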
